A study of Mus musculus with 6 samples.

Results

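Methylation at the ends of 9 genes outside the Hox clusters is described here in blood stem and progenitor cells of mice with and without a knock-in allele of Idh1. The genes are Lhcgr, Cdx1, Tubb4a, Acta1, Palm3, Cldn5, Chad, Dnajb3 and Ankdd1a. They were chosen by their measured values in these same libraries. Their CpG-rich ends were at least 10 percentage points higher in multipotent progenitors (MPP) than in long-term haematopoietic stem cells (LT-HSC) in both genotypes. Each of these ends also passed the Fisher exact test described below, run there on CpG-rich ends and adjusted over them rather than over whole gene regions. Short-term stem cells (ST-HSC) were not used in the choice. That holds for 38 of 11461 CpG-rich gene ends, 9 of them the genes described here. A gene region was every CpG position covered in all 6 libraries within 2000 bases of either end of the gene, and 14685 of 34631 protein-coding and lncRNA genes had at least 5 such positions. All 9 genes did, with 146 positions between them.

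The KI group was labelled IDH1+/lsl VavCre+ and the Control group IDH1+/+ VavCre+, so both carried the Cre recombinase that the Vav promoter drives in blood cells. Both were male C57BL/6 mice aged 7 to 10 months, with marrow pooled from 6 mice per group. LT-HSC were sorted as Lin- Sca+ Kit+ CD150+ CD48-, ST-HSC as Lin- Sca+ Kit+ CD150+ CD48+ and MPP as Lin- Sca+ Kit+ CD150-. Each genotype and cell type was 1 library of enhanced reduced representation bisulfite sequencing, a method that reads CpG-rich restriction fragments after unmethylated cytosine has been converted, so there are no replicates. Whether more cells carry a methylated copy or a different mixture of cells was sorted cannot be told apart in such pools. No sequencing lane in the deposited names held both genotypes, so an effect of the lane and one of the genotype cannot be told apart.

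DNA methylation at a CpG is kept through cell division by DNMT1, laid down by DNMT3A and DNMT3B and removed by way of oxidation by the TET enzymes, which need 2-oxoglutarate. IDH1 makes 2-oxoglutarate. The 9 genes are mostly known from tissues other than blood, and their expression was not measured in these libraries. Lhcgr encodes the receptor for luteinizing hormone and chorionic gonadotropin, best known in the gonads and also expressed by mouse haematopoietic stem cells. Cdx1 is a caudal homeobox transcription factor of the gut and an upstream regulator of Hox genes. Tubb4a is a beta-tubulin of the brain, Acta1 the alpha-actin of skeletal muscle, and Palm3 a membrane-attached member of the paralemmin family. Cldn5 is the claudin of endothelial tight junctions, Chad (chondroadherin) a leucine-rich protein of cartilage matrix, Dnajb3 a mouse testis co-chaperone of the HSP40 family, and Ankdd1a a protein with ankyrin repeats and a death domain.

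In 4 genes some or all measured CpGs lay within 250 bases before to 50 after the start site, so their promoter sequences (RefSeq, GRCm38.p6, 5′ to 3′ on the strand of the gene) show which CpGs were read there. Capitals mark the CpGs that were read in all 6 libraries, and the other CpGs of the window were not measured in all of them. The windows are chr8:84021224-84021523 on the plus strand for Palm3, chr17:88791965-88792264 on the minus strand for Lhcgr, chr17:57087551-57087850 on the minus strand for Tubb4a and chr8:123894726-123895025 on the minus strand for Acta1.
Palm3: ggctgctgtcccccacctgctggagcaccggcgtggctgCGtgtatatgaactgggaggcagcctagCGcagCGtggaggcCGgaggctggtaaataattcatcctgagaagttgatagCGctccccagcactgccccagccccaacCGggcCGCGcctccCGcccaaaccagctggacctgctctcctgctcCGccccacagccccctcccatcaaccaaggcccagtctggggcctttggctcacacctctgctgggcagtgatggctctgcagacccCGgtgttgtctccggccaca
Lhcgr: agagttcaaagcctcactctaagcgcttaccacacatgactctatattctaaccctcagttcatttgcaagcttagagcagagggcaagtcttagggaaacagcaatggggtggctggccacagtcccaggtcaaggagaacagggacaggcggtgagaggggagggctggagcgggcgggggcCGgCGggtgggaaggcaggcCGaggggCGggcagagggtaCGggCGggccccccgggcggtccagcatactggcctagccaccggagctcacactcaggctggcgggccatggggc
Tubb4a: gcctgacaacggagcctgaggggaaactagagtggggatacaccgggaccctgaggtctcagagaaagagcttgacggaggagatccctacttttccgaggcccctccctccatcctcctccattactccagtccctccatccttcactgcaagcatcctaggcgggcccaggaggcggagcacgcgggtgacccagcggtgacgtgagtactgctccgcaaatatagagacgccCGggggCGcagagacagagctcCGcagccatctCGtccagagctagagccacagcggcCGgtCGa
Acta1: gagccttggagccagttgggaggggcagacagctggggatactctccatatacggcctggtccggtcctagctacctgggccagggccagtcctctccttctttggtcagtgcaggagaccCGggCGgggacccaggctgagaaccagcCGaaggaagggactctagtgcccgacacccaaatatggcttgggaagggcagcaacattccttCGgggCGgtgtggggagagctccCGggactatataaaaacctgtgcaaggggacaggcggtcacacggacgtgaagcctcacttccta
The window of Palm3 held 11 measured CpGs of 14, and these are all the CpGs measured for this gene. Those of Lhcgr, Tubb4a and Acta1 held 6 of 14, 6 of 19 and 6 of 12. At the capitals of Lhcgr the mean level was 1.14, 29.3 and 56.1% in KI LT-HSC, KI ST-HSC and KI MPP, and 10.2, 14.6 and 73.1% in Control. At those of Acta1 it was 29.3, 38.8 and 46.8% in KI, against 22.3, 31.9 and 68.9% in Control. Among the capitals of Tubb4a the KI levels were 32.2, 81.8 and 61.6% and the Control levels 13.8, 22.7 and 37.4%.

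Libraries held 38284759 to 53884467 reads summed over CpGs, a median position had 27 to 45 of them, and 552338 positions were read in all 6 libraries. Levels are unweighted means of the percent of methylated reads over positions. A region was called where a two-sided Fisher exact test on summed reads gave an adjusted p under 0.01, over all 14685 regions, and the level differed by at least 10 points. Such a call compares 2 libraries and covers counting error only. Neighbouring CpGs sit on the same reads, so summed reads count a read several times. The 146 positions form 40 runs that the same reads cover, and calls with each read counted once are given beside the others. Markers were read only as a check of the sort. Of the stem and progenitor markers 5 of 10 were measured, at mean levels of 0.936 to 7.44%, of the lineage markers 3 of 12, at 2.59 to 98.7%, and of the endothelial and stromal markers 5 of 8, at 5.04 to 54.8%. None of these was called in any of the 9 comparisons, where 8.30% of all regions were called at least once. So few markers were measured that the lack of calls does not settle how clean the sort was. Surface proteins were not measured.

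From LT-HSC to MPP, the mean level over the 9 genes was 35.0, 46.1 and 57.1% in KI LT-HSC, KI ST-HSC and KI MPP, and 27.1, 29.9 and 53.0% in Control. The mean over all 14685 regions stayed between 12.2 and 13.9% in the 6 libraries, and the median between 3.75 and 5.08%. Because MPP against LT-HSC chose the genes, the following values describe the choice and test nothing. Over whole regions, MPP was higher than LT-HSC by 6.72 to 46.7 points in KI (median 18.2) and by 8.92 to 49.6 points in Control (median 20.3). In that direction 7 of the 9 were called in KI and 8 in Control, where 1.7 and 2.15% of all regions were, and none was called lower, where 0.259 and 1.22% were. With each read counted once these counts were 3 in KI and 6 in Control, where 1.06 and 1.32% of all regions were called higher and 0.123 and 0.647% lower. At the CpG-rich end, which the choice used, Cdx1 lay nearest to the 10 points, at 15.03 points in KI and 11.8 in Control. Just outside the 10 points stood Hoxb2, at 35.3 and 9.84 points, a gene of the Hox clusters, which the choice left out in any case.

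**Figure D1:**
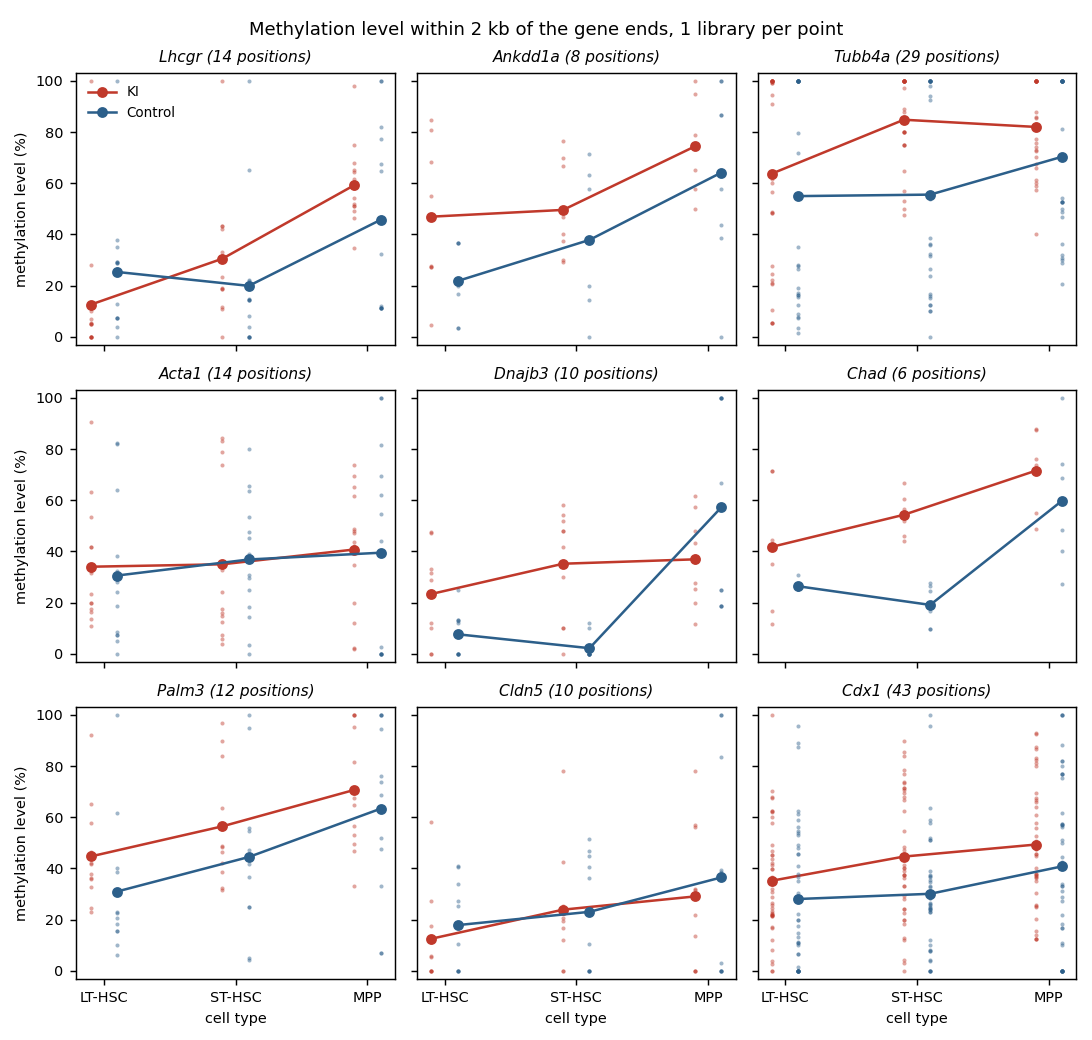
Methylation level in percent (vertical axis) in LT-HSC, ST-HSC and MPP (horizontal axis) for the 9 genes, KI in red and Control in blue. Large points joined by lines are means over CpG positions of 1 library, small points are single positions. Control Dnajb3 and Chad stay low through ST-HSC and stand at 57.2 and 59.8% in MPP.

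The signalling gene Lhcgr had the largest difference between LT-HSC and MPP in KI. Its 14 positions lie on chromosome 17 from 88791846 to 88793599, with 363 to 607 summed reads per library. The level was 12.6, 30.5 and 59.2% in KI LT-HSC, KI ST-HSC and KI MPP. In Control it was 25.3, 19.9 and 45.7%, so the genotypes cross between LT-HSC and ST-HSC. The 6 CpGs from 22 to 66 bases before the start site were higher in MPP in both genotypes. The run of 6 CpGs from 138 to 168 bases after it was not: its level was 6.90, 25.3 and 59.9% in KI and 30.1, 14.5 and 11.5% in Control. A single CpG 59 bases after the start, read on the reverse strand like those before it, stood at 32.2% in Control MPP and 12.9% in Control LT-HSC. The run at 138 to 168 bases was read on the forward strand, so its strand and its place cannot be told apart. A single position 1585 bases before the start stood at 98.1 to 100% in the 6 libraries.

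Cdx1, the transcription factor, had the most positions, 43 on chromosome 18 from 61035058 to 61036415, with 1171 to 2445 summed reads per library. All 43 are also among the 48 positions of the predicted gene Gm52351, so they are not evidence for Cdx1 alone. Its level was 35.2, 44.7 and 49.3% in KI LT-HSC, KI ST-HSC and KI MPP, and 28.1, 30.1 and 40.8% in Control. Single positions spanned from 12.3 to 93.0% in KI MPP and from 0 to 100% in Control MPP. Of the 43 positions, 33 were higher in MPP than in LT-HSC in KI, 24 in Control and 17 in both.

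Among the genes of the cytoskeleton and membrane, Tubb4a split between its ends. The 15 positions of its CpG-rich end, from 15 bases before to 114 after the start site, stood at 31.1, 71.6 and 68.1% in KI LT-HSC, KI ST-HSC and KI MPP. In Control they stood at 16.2, 22.3 and 43.9%. The 14 positions at the far end of the gene were at 96.9 to 99.03% in KI and 91.2 to 98.7% in Control. Over all 29 positions, on chromosome 17 from 57081072 to 57087615, the KI levels were 63.8, 84.8 and 82.0% and the Control levels 55.0, 55.6 and 70.3%. The KI level was highest in ST-HSC and the Control level in MPP. Weighted by reads, which gives the far end more weight, KI MPP minus KI LT-HSC was -3.53 points.

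Palm3 was higher at each stage than at the one before it in both genotypes. Its 12 positions lie on chromosome 8 from 84021264 to 84021505, between 210 bases before and 31 after the start site. The level was 44.7, 56.5 and 70.7% in KI LT-HSC, KI ST-HSC and KI MPP and 31.0, 44.5 and 63.4% in Control. All 12 positions were higher in MPP than in LT-HSC in KI and 9 in Control. Its gene overlaps Il27ra, with which it shares no measured position.

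Acta1 differed between its start and its body. The 6 positions from 14 to 129 bases before the start were those of the printed promoter, and MPP exceeded LT-HSC there by 17.5 points in KI and 46.6 in Control. The mean of the 8 positions inside the gene was lower in MPP than in LT-HSC, by -1.37 points in KI and -19.3 in Control. Single positions there went both ways, from -29.4 to 41.7 points in KI and from -79.4 to 31.1 in Control. Among them, the run of 2 positions 1527 and 1565 bases after the start stood at 1.39% in Control MPP, against 48.2 to 60.1% in the other 5 libraries. Over its 14 positions, from 123892464 to 123894904 of chromosome 8, Acta1 had levels of 34.0, 35.0 and 40.8% in KI and 30.6, 36.9 and 39.5% in Control. It was not called in any of the 9 comparisons. At the CpG-rich end alone it was lower in KI than in Control in MPP, by -22.1 points, and 10 of its 14 positions are also those of the lncRNA gene Gm29773.

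Cldn5 was the lowest of the 9 in MPP. Its 10 positions on chromosome 16, between 18775988 and 18777296, had levels of 12.6, 23.9 and 29.1% in KI LT-HSC, KI ST-HSC and KI MPP and of 17.9, 23.1 and 36.5% in Control. The 6 positions 783 to 859 bases before the start held this difference. The 4 positions from 401 to 449 bases after the start were at 4.41, 7.17 and 5.50% in KI and at 0% in each Control library.

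Chad had the fewest positions, 6 on chromosome 11 from 94565428 to 94565513, which lie 381 to 466 bases after its start and inside the larger gene Acsf2. The level was 41.8, 54.3 and 71.5% in KI LT-HSC, KI ST-HSC and KI MPP. Control stood at 26.4, 19.1 and 59.8%. The KI LT-HSC value comes from 39 reads counted once, of which 51.3% were methylated (Wilson 95% interval 36.2 to 66.1).

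Dnajb3 had the largest MPP minus LT-HSC difference in Control. Its 10 positions lie on chromosome 1 from 88205583 to 88205690, from 58 to 165 bases after the start, where the Ugt1a genes span the same stretch. In KI LT-HSC, ST-HSC and MPP the level was 23.4, 35.2 and 36.9%. In Control it was 7.64, 2.21 and 57.2%, so Control was below KI in LT-HSC and ST-HSC and above it in MPP. The Control MPP library covered the run of 6 forward positions with 12 reads, at 75.0%, and the run of 4 reverse positions with 27 reads, at 30.6%. Counted once, 32.2% of 115 KI MPP reads were methylated (24.3 to 41.2) and 43.6% of 39 Control MPP reads (29.3 to 59.02), so the intervals overlap.

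For Ankdd1a, 8 positions on chromosome 9 from 65520205 to 65520342 were read by 39 to 51 reads counted once. The level was 47.0, 49.6 and 74.4% in KI LT-HSC, KI ST-HSC and KI MPP, and 21.8, 37.9 and 64.2% in Control. Both libraries of MPP lay above both of LT-HSC. The gene overlaps Spg21, with which it shares no measured position.

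**Figure D2:**
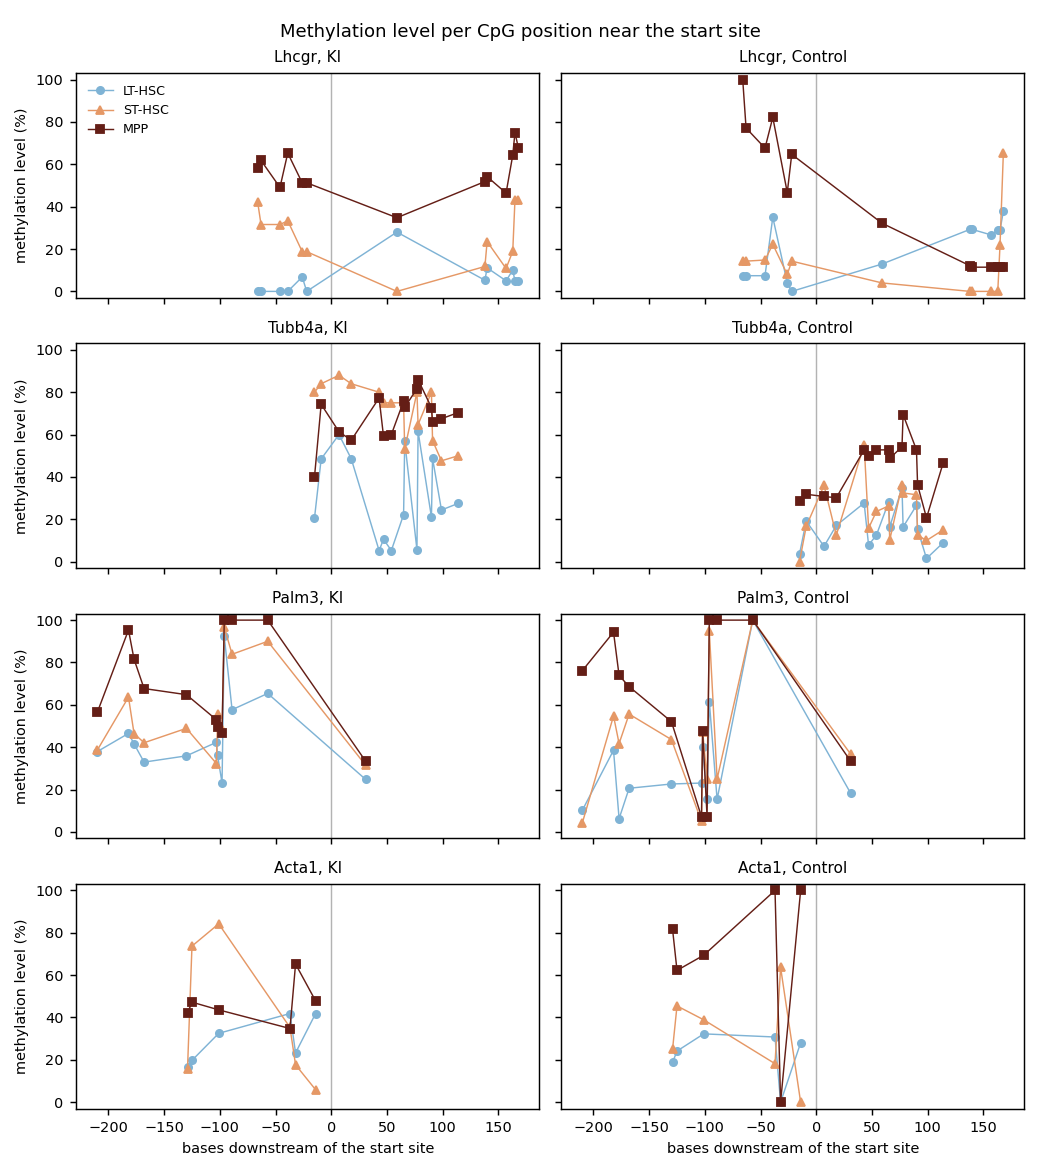
Methylation level in percent (vertical axis) per CpG position against the distance in bases downstream of the start site (horizontal axis, start at 0, within 300 bases) for Lhcgr, Tubb4a, Palm3 and Acta1, KI left and Control right. Lines join positions of 1 library. Before the start of Lhcgr, MPP lies above LT-HSC in both genotypes, and in the run from 138 to 168 bases after it, MPP lies below LT-HSC in Control.

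The 40 runs of CpGs did not move alike. MPP was above LT-HSC in 34 runs in KI, in 30 in Control and in 27 in both. Within the CpG-rich ends, which the choice used, these counts were 29, 26 and 25 of 30 runs. Of single positions, 113 of 146 were higher in KI, 89 in Control and 76 in both, while 5 were lower in both. By whole region, 77.9% of all regions were higher in MPP than in LT-HSC in KI and 46.2% in Control. Among regions with a mean level of 10 to 90%, 72.0 and 52.9% were. Such shares were not worked out for single positions or runs, so the counts alone do not set these genes apart. Every position of Dnajb3, Chad and Palm3 and 13 of 14 of Lhcgr lay within 500 bases of the start site. A start site was not matched for Ankdd1a and Cdx1.

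The level of ST-HSC was not used in choosing the genes, and it was set against the midpoint of LT-HSC and MPP in each genotype. In KI, ST-HSC lay below the midpoint at 5 genes and above it at 4, with a median of -1.22 points. Tubb4a stood highest, at 11.9 points above the midpoint, and Ankdd1a lowest, at -11.1. In Control, ST-HSC lay below the midpoint at 8 of 9 genes, with a median of -5.12 points and the largest shortfalls at Dnajb3 (-30.2), Chad (-24.0) and Lhcgr (-15.6). Acta1 was the exception, at 1.81 points. Over all 14685 regions the medians were 0.0706 points in KI and -0.0775 in Control, with 47.3 and 52.05% of regions below the midpoint. Among the 2938 regions with a mean level of 10 to 90%, 43.5% lay below it in KI and 56.5% in Control. Among the 67 other regions called higher in MPP in both genotypes, 21 lay below the midpoint in KI and 41 in Control. Whether the 9 genes differ from these was not tested, nor was the difference between genotypes, since each rests on single libraries.

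**Figure D3:**
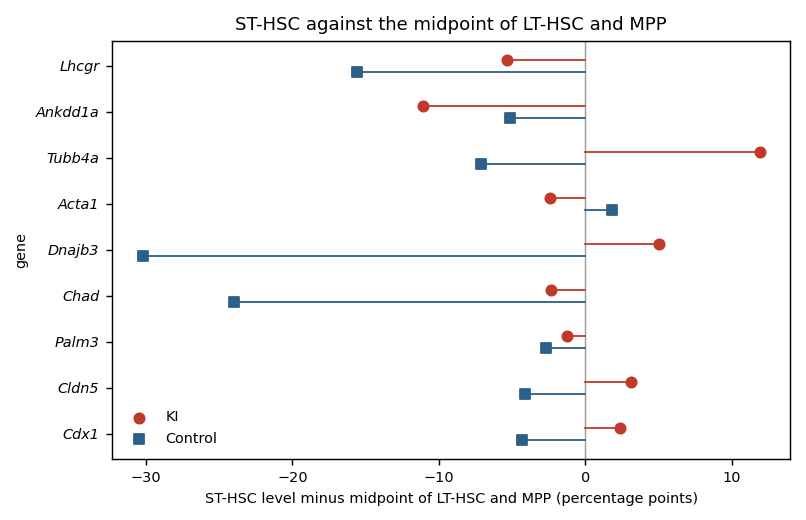
ST-HSC level minus the midpoint of LT-HSC and MPP in percentage points (horizontal axis) for each gene (vertical axis), KI as red circles and Control as blue squares. KI lies left of 0 for 5 genes, Control for 8.

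The first step, ST-HSC against LT-HSC, was called higher at 4 genes in KI (Dnajb3, Tubb4a, Lhcgr and Palm3; 1.27% of all regions) and at 2 in Control (Palm3 and Ankdd1a; 0.763% of all regions). The second, MPP against ST-HSC, was called higher at 4 genes in KI (Chad, Lhcgr, Palm3 and Ankdd1a; 0.483% of all regions) and at 7 in Control, all but Tubb4a and Acta1 (1.75% of all regions). None of the 9 was called lower in either step, where 0.293% of all regions in KI and 1.02% in Control were called lower in the first, and 0.368% in KI and 0.763% in Control in the second. These comparisons share the LT-HSC or MPP library with the choice of the genes and are not independent of it. Counted once per read, the first step was called at Lhcgr and Palm3 in KI (0.729% of all regions higher, 0.102% lower) and at Palm3 in Control (0.334% higher, 0.497% lower). The second was then called at none in KI (0.0681% higher, 0.0545% lower) and at Dnajb3, Chad and Palm3 in Control (0.933% higher, 0.375% lower). In the Control step from ST-HSC to MPP, 257 regions were called higher and 112 lower, and 479 and 356 when levels were weighted by reads.

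With limma over all 6 libraries, with genotype as a term, the ST-HSC level was compared with the midpoint for both genotypes together. None of the 14685 regions passed at an adjusted p under 0.05, with 520 at an unadjusted p under 0.05. Chad came nearest among the 9, at a log2 difference of -0.92 (SE 0.42, limma adjusted p 0.998).

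Between genotypes, 3 to 5 of the 9 genes were called higher in KI in each cell type, and fewer when each read was counted once. Differences were positive at 7 of the 9 genes for LT-HSC, at 8 for ST-HSC and at 7 for MPP, with medians of 8.82, 11.99 and 8.53 points. Over all regions the medians were -0.0898, 0.687 and 1.28 points, and 47.6, 68.3 and 73.6% of regions were positive. The counts for ST-HSC and MPP therefore stand beside a table in which most regions were higher in KI. Among the 2938 regions with a mean level of 10 to 90%, most were higher in KI in LT-HSC as well. There 57.6, 76.2 and 71.3% were positive for LT-HSC, ST-HSC and MPP, with medians of 0.569, 1.85 and 1.83 points. KI minus Control was not the contrast that chose the genes, though the choice used the LT-HSC and MPP libraries.

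In LT-HSC, Ankdd1a (25.1 points), Dnajb3 (15.8), Chad (15.4) and Palm3 (13.7) were called higher in KI, where 1.35% of all regions were, and Lhcgr was called lower, where 0.565% were. The difference of Ankdd1a lay in its 4 forward positions, at 62.0% in KI and 11.9% in Control, from 29 and 30 reads. Its 4 reverse positions stood at 31.9% in KI and 31.8% in Control. Over all regions 198 were called higher and 83 lower, and 333 and 484 when weighted by reads, so the direction of the whole LT-HSC comparison depends on the weights. With each read counted once, 0.851% of all regions were called higher and 0.286% lower. Lhcgr was then the one gene of the 9 that was called, at 12.6% in KI and 25.3% in Control (adjusted p 9.15e-05 by Fisher exact test). Its pooled reads counted once were methylated at 23.5% in KI (Wilson 95% interval 18.4 to 29.4) and 43.98% in Control (37.5 to 50.6). These reads include the single CpG 1585 bases before the start, at 100% in both libraries, which 36 KI and 68 Control reads covered. At the CpG-rich end, which leaves this CpG out, the level was 5.86% in KI and 19.6% in Control. The part of this CpG in the call with each read counted once was not tested.

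In ST-HSC, Chad (35.2 points), Dnajb3 (33.0), Tubb4a (29.3), Cdx1 (14.5) and Palm3 (11.99) were called higher in KI, where 2.2% of all regions were, and none of the 9 was called lower, where 0.252% were. Chad, Dnajb3 and Tubb4a were also called with each read counted once, where 1.07% of all regions were called higher and 0.0953% lower. Chad had 54.3% in KI and 19.1% in Control (adjusted p 5.55e-06 by Fisher exact test on reads counted once). Dnajb3 had 35.2% in KI and 2.21% in Control (adjusted p 0.00038 by the same test). Its forward run stood at 50.4% in KI and 2.02% in Control, from 25 and 33 reads. The reverse run of Dnajb3 stood at 12.5 and 2.5%, from 10 and 30 reads. Tubb4a had 84.8% in KI and 55.6% in Control (adjusted p 0.000114). Over all regions, 323 were called higher and 37 lower, and 423 and 133 when weighted by reads.

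In MPP, Lhcgr (13.5 points), Chad (11.8) and Tubb4a (11.7) were called higher in KI, where 2.46% of all regions were, and Dnajb3 was called lower (-20.3), where 0.674% were. The 7 forward positions of Lhcgr stood at 65.4% in KI and 24.2% in Control. Its 7 reverse positions, which include those before the start site close to it, went the other way, at 53.1% in KI and 67.2% in Control. Counting reads once, 1.55% of all regions were called higher and 0.306% lower. Chad and Tubb4a were then called higher, and Lhcgr and Dnajb3 were not, at adjusted p of 0.0391 and 0.422 by Fisher exact test. Chad was thus called higher in KI in all 3 cell types on summed reads, with 71.5% in KI and 59.8% in Control in MPP. Its 2 reverse positions stood at 80.8% in KI MPP and 33.6% in Control MPP. Its 4 forward positions went the other way, at 66.9% in KI MPP and 72.9% in Control MPP. In LT-HSC the reverse positions of Chad stood at 71.4% in KI and 28.2% in Control, from 21 and 133 reads. The forward positions stood at 27.04% in KI LT-HSC and 25.49% in Control LT-HSC. In ST-HSC the positions of both strands were higher in KI.

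**Figure D4:**
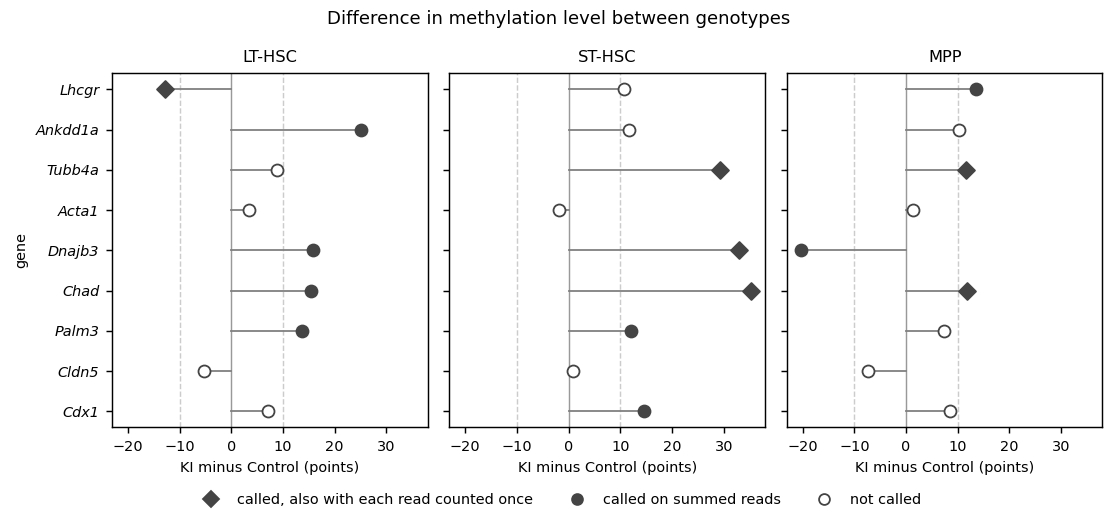
KI minus Control in percentage points (horizontal axis) for each gene (vertical axis) in LT-HSC, ST-HSC and MPP. Diamonds were called on summed reads and with each read counted once, filled circles on summed reads alone, open circles were not called, and dashed lines mark 10 points. In ST-HSC, Chad, Dnajb3 and Tubb4a stand apart at 29.3 to 35.2 points.

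In limma over the 6 libraries, with cell type as a term, the spread between libraries enters the test, although cell types of a genotype are not replicates. None of the 9 genes passed. Chad had the lowest adjusted p, 0.672 by limma, with a log2 difference of 1.50 (SE 0.40). Its level over all 6 positions was higher in KI in 3 of 3 cell types. Tubb4a followed at 1.41 (SE 0.45) and Ankdd1a at 1.18 (SE 0.39), both at a limma adjusted p of 0.713 and higher in KI in all 3 cell types. The median log2 difference over all regions was 0.21. Of all 14685 regions, 0 passed as higher and 1 as lower in KI, with 917 at an unadjusted p under 0.05. Leaving out a cell type brought none of the 9 past the threshold.

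Relatives of the 9 genes were read in the same way. In 9 lists of relatives, among them beta tubulins, actins, claudins, DNAJB chaperones, paralemmins and small leucine-rich proteins, 34 genes besides the 9 were measured. Of these, 22 stayed under 10% in all 6 libraries (64.7%, against 68.0% of all regions). In MPP against LT-HSC, 1 of the 34 was called higher in KI and 0 in Control, beside 1.7 and 2.15% of all regions. That gene, Cldn4, a claudin of epithelia, had 66.5, 96.7 and 95.8% in KI LT-HSC, KI ST-HSC and KI MPP and 94.5, 87.7 and 99.7% in Control. It was also called lower in KI LT-HSC than in Control LT-HSC, by -28.0 points. Over all 9 comparisons 5 of the 34 were called at least once (14.7%, against 8.30% of all regions). Fmod, a leucine-rich protein of connective tissue, was called higher in KI ST-HSC than in Control ST-HSC, by 13.96 points, and in KI MPP than in Control MPP, by 12.7. The claudins Cldn7 and Cldn3 were called higher in KI than in Control for ST-HSC, by 11.3 and 10.5 points.

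RefSeq promoters matched 7 of the 9, with 12 to 19 CpGs in 300 bases and a median of 14, against 21 for the 11626 promoters of measured regions and 7 for all 27025. The ratio of observed to expected CpGs had a median of 0.473, against 0.758 for promoters of measured regions, 0.640 for those of regions at 10 to 90% and 0.389 for all promoters. The letters GGGCGG, on either strand, were in 6 of the 7, in 63.7% of promoters of measured regions and in 35.9% of all. TATAAA was in 2, Acta1 and Chad, in 6.61% of promoters of measured regions and in 14.2% of all. CACGTG was in none of the 7 and in 7.24% of all promoters. The letters were counted separately for each motif, and a match is not a binding site.

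Beyond these genes, the level profiles nearest to the mean of the 9 over the 6 libraries, by root mean square distance, were those of Gm5294 (6.28 points), Sycp2l (7.36), Gm16157 (7.45), Wfdc2 (7.77) and A530020G20Rik (7.77). Gm5294 stood at 34.1, 41.9 and 45.6% in KI LT-HSC, KI ST-HSC and KI MPP and at 29.4, 38.9 and 52.4% in Control.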

How the data were processed

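Enhanced reduced representation bisulfite sequencing used 10 ng of DNA per library and fragments of 150 to 400 bp, per the labels' protocols. The submitters' processing notes name Bismark 0.10.0, SAMtools 1.0, methylKit 0.9.1 and the mm10 build; how duplicate reads were treated was not stated there. Per the file headers, each deposited row gives a CpG position with its coverage, a read count that was never under 10. The same headers give the deposited percent of C and the percent of T among those reads. Methylated reads worked out from these were whole at 100% of positions, within 0.01% of the coverage.

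Positions in all 6 libraries were assigned to genes by RefSeq extents of GRCm38.p6, the same assembly, with strands kept apart. Fisher exact tests used numba 0.67.0 and scipy 1.17.1 with Benjamini-Hochberg adjustment. limma 3.58.1 in R 4.3.3 was fitted with a variance trend to log2 methylated over unmethylated reads, with 1 added to each. For reads counted once, positions of a strand within 100 bases whose coverage differed by at most 25% in all libraries formed a run, read at its highest coverage. This was added after the data were seen. The CpG-rich end reached from 1000 bases outside to 500 inside the end with at least 3 times the positions of the other. Both tests were tested on simulated reads. Intervals are Wilson 95% intervals and cover counting error only, since PCR copies are not independent molecules.

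The genes and lists were chosen with earlier results of these data known. Named are the 9 genes, genes that overlap them, up to 3 called genes per list, the 5 nearest profiles, and the gene just outside the 10 points. Each group is 1 library, so p-values say nothing of the spread between mice. Alternatives changed the coverage minimum, weights, window, depth, thresholds, strand, prior count and cell types fitted. Exons and UTRs were not analysed here.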

Additional observations from a re-analysis of the deposited data

Results flagged for a closer look

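At 2 genes the KI minus Control difference was called in opposite directions in different cell types. The difference between the cell types was not tested. Lhcgr was at -12.8 points in LT-HSC and at 13.5 points in MPP. In MPP its 7 reverse positions were lower in KI, at 53.1% against 67.2% in Control, and its 7 forward positions higher. With each read counted once, the LT-HSC difference was called and the MPP difference was not. Dnajb3 was at 15.8 points in LT-HSC, at 33.0 points in ST-HSC and at -20.3 points in MPP. With each read counted once, the ST-HSC difference was called and the others were not. The Control MPP library read the forward positions of Dnajb3 with 12 reads, and the part of this depth in the result was not tested.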

How the results depend on the processing

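Each group is 1 library, and calls cover counting error. No paired analysis was possible because no group has replicates. The limma fits have cell type or genotype as a term instead. Leaving out the highest coverage changed no direction or call of the 9 genes, and a prior count of 5 changed none in limma. Fitting the midpoint test without either genotype was not run. The causes of the changes below were not tested, except that 3 settings left fewer genes.

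With coverage of at least 20, 5 of the 9 genes kept a value. KI against Control then gave 2 called higher and 0 lower in LT-HSC and 1 higher in ST-HSC, with positive differences at 3, 4 and 4 genes in the 3 cell types. ST-HSC against LT-HSC gave 1 in KI and 1 in Control, MPP against ST-HSC 2 and 3, MPP against LT-HSC 4 and 4, and ST-HSC lay below the midpoint at 2 and 4. Of the 12513 regions left, 133 were called higher and 56 lower in KI in LT-HSC, and 204 higher in ST-HSC. ST-HSC against LT-HSC was called higher at 127 regions in KI and 72 in Control. For MPP against ST-HSC these were 50 and 151, and for MPP against LT-HSC 170 and 207. Cldn5 reversed to -3.35 points (KI minus Control, ST-HSC), and Control Lhcgr to -2.17 (MPP minus ST-HSC) and -9.53 (MPP minus LT-HSC).

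Weighted by reads, 2 genes were called lower in KI for LT-HSC, 2 for MPP, while KI ST-HSC lay below the midpoint at 3. Of all 14685 regions, 484 and 241 were called lower in KI for LT-HSC and MPP. Reversed were KI minus Control of Acta1 in LT-HSC (-11.2) and MPP (-0.31) and of Palm3 in MPP (-0.93), ST-HSC minus LT-HSC of Control Acta1 (-0.065), MPP minus ST-HSC of KI Dnajb3 (-7.26) and Control Tubb4a (-0.17), and MPP minus LT-HSC of KI Tubb4a (-3.53). With 1000 bases around gene ends and with the CpG-rich end, 2 genes were called lower in KI in MPP. So were 79 of 13157 regions and 72 of 11461. Acta1 was at -13.5 and -22.1 points there and, at the CpG-rich end, at 6.89 in ST-HSC, and Control Cdx1 was at -0.34 for ST-HSC minus LT-HSC in both.

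Thinned to 10 reads, KI against Control gave 3 higher for ST-HSC and, for both other cell types, 0 higher and 0 lower. The first step gave 1 in KI and 0 in Control, the second 1 and 4, and MPP against LT-HSC 2 and 5. Of all 14685 regions, 86 were called higher in KI in ST-HSC, 38 higher and 6 lower in LT-HSC, and 119 and 23 in MPP. The first step was called higher at 39 regions in KI and 11 in Control. For the second these were 3 and 69, and for MPP against LT-HSC 53 and 118. Reversed were Acta1 in LT-HSC (-10.7) and Cldn5 in ST-HSC (-8.00) for KI minus Control, KI Ankdd1a in the first step (-5.00), KI Dnajb3 (-6.00) and Control Acta1 (-2.14) in the second, and Control Acta1 stood at 0 for MPP minus LT-HSC. At 5 points, 2 genes were lower in KI in MPP and 1 was lower in the first step in Control, as were 287 and 441 of all 14685 regions. With at least 10 positions, 7 genes kept a value, of which 2 were higher in KI in LT-HSC, 1 in the first step in Control and 2 in the second in KI, with 3 below the midpoint in KI. Of the 12354 regions left, 86, 43 and 22 were called higher in these comparisons, in that order.

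On the forward strand, 6 genes kept a value. KI against Control gave 3 higher in ST-HSC and 1 in MPP, with positive differences at 5 and 4. The first step gave 0 in KI and 0 higher and 1 lower in Control, the second 1 and 1, MPP against LT-HSC 2 in KI and 3 higher and 1 lower in Control, and ST-HSC lay below the midpoint at 2 and 5. Of the 12437 regions left, 183 were called higher in KI in ST-HSC and 264 in MPP. The first step was called higher at 136 in KI, and at 94 higher and 96 lower in Control. The second gave 51 and 191 higher. MPP against LT-HSC gave 182 higher in KI, and 263 higher and 133 lower in Control. Reversed were Acta1 in MPP for KI minus Control (-1.93), KI Acta1 (-9.14) and Control Tubb4a (-8.42) in the first step, KI Tubb4a (5.50), KI Dnajb3 (-4.65) and Control Lhcgr (-2.53) in the second, and Control Lhcgr for MPP minus LT-HSC (-15.9).

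With each read counted once, KI against Control gave 0 higher in LT-HSC, 3 higher in ST-HSC and 0 lower in MPP, the first step 2 and 1, the second 0 and 3, and MPP against LT-HSC 3 in KI. In limma the log2 difference of Lhcgr, 0.05 over all libraries, was -0.24 without ST-HSC libraries and -0.49 without MPP libraries. Over all regions limma called 60 higher and 25 lower without ST-HSC, 12 and 2 without MPP, 0 and 0 without LT-HSC, and 2 and 2 with a prior count of 5, none of them the 9 genes. Calls over all regions moved by over 1.5 times in 18 of 18 counts when thinned, with at least 10 positions, at 5 points and with each read counted once, in 17 when weighted by reads, 13 at the CpG-rich end, 11 at coverage of at least 20 and 5 on the forward strand.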

Other observations

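Some CpGs of the 9 genes were read in all 3 libraries of a genotype but not in all 6, and took no part in the levels above. At Lhcgr, 5 such KI positions had 8.18, 7.05 and 42.2% (LT-HSC, ST-HSC, MPP). At Dnajb3, 9 KI positions stood at 12.2, 12.7 and 33.5% in the same order. At Palm3, 7 KI positions stood at 51.4, 66.0 and 63.0%, and 8 Control positions at 52.4, 49.4 and 89.2%. At Cldn5, 29 KI positions stayed between 3.92 and 8.28%. At Tubb4a, MPP minus LT-HSC was 2.85 points over 10 KI positions and -12.4 points over 6 Control positions. At Acta1 it was -6.18 points over 8 KI positions, and at Cdx1 -3.96 points over 4 KI positions and 5.77 over 8 Control positions.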
